A study of Mus musculus with 3 samples.

Results

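The Mir322 cluster is a group of 7 miRNA hairpins on the mouse X chromosome, and this account follows 7 of the mature miRNAs cut from it through the first days of muscle regeneration. The members were taken by name from the deposited read counts. All 7 were listed in every library, among 1138 mature miRNAs. Small RNAs were sequenced from TA (tibialis anterior) muscle, a shin muscle, of wild type C57BL/6 mice aged 10 weeks, on day 0 and on days 1 and 3 after injury with CTX (cardiotoxin), a venom component that kills myofibers. Each time point is 1 library pooled from 4 samples, which leaves no replicates. How far mice differ within a time point is therefore unknown, and every difference given here compares libraries and has no replicate check. The labels give 30 mL of 10 mM CTX, whereas the methods give these figures in microliters and micromolar, and the labels do not say whether the day 0 muscles received the saline control.

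A hairpin in a primary transcript is cut to a short duplex, and either strand of it, the 5p or the 3p arm, can be loaded into Argonaute. The loaded strand finds its target mRNAs mainly through the seed, bases 2 to 8 from its 5′ end. miR-322 is the mouse counterpart of human miR-424, and with miR-503 it is known for slowing the cell cycle as myoblasts differentiate. miR-351 is known from proliferating muscle progenitor cells.

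The mature sequences are shown because their seeds sort the members into different target families. They come from the RefSeq annotation of GRCm38.p6, the build to which the reads were aligned, and all 13 mature miRNAs described here were matched by name. Capitals mark bases 2 to 8.

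mmu-miR-322-5p: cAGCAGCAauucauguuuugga

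mmu-miR-503-5p: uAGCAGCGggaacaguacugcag

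mmu-miR-351-5p: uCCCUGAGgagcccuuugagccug

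mmu-miR-322-3p: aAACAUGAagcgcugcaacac

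mmu-miR-542-3p: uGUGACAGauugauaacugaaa

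mmu-miR-450a-5p: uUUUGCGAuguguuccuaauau

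mmu-miR-450b-5p: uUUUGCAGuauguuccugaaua

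miR-322-5p and miR-503-5p share bases 2 to 7 and part at base 8. The other 5 members share bases 2 to 7 with no other member. miR-450a-5p and miR-450b-5p have their first 6 bases in common and differ by an edit distance of 5, the closest pair among the 7. miR-450a-5p is cut from both Mir450-1 and Mir450-2, so its reads cannot be divided between these hairpins.

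The hairpins lie on the minus strand within 6353 bases of chromosome X in GRCm38, in the order Mir322, Mir503, Mir351, Mir542, Mir450-2, Mir450-1 and Mir450b in the direction of transcription. Mir322 is at chrX:53054255-53054349, and Mir503 begins 295 bases downstream of its first base at chrX:53053984-53054054. Mir351 (chrX:53053255-53053353, position from GENCODE M21) begins 996 bases downstream. Mir542 begins 4862 bases downstream at chrX:53049403-53049487, and Mir450b is last, at chrX:53047997-53048078. In GENCODE M21 none of the 7 hairpins overlaps another annotated gene. The long noncoding RNA Gm28730 lies between Mir542 and Mir351, and the noncoding transcript C430049B03Rik lies upstream of Mir322, both on the same strand.

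The counts of the listed miRNAs summed to 8507580, 6421056 and 9795076 in the 3 libraries, in order of time. Some names, such as miR-199a-3p and miR-199b-3p, carry equal counts in every library. The same reads may thus be entered under more than 1 name, and the totals could exceed the number of miRNA reads. Levels are given as counts per 1000000 of the library total (CPM), so each is a share of the summed counts. Mature miRNAs are of similar length, and no scaling by length was applied, although ligation and PCR can favor one sequence over another. Brackets give 95% intervals for counting error only, and PCR copies are not independent molecules. An miRNA was called higher or lower when its CPM differed at least 2-fold between libraries, among those with at least 10 reads in either library. With scaling to the total, most miRNAs stood higher after injury than on day 0. Over the miRNAs that reached 10 reads on day 0 and in the later library, the median log2 ratio was 0.90 for day 1 and 0.93 for day 3. Scaling by edgeR's TMM factors moved all log2 ratios by -0.94 on day 1 and -0.93 on day 3 relative to day 0, and by 0.02 between days 1 and 3. In bulk muscle, fewer cells of a type and less RNA per cell cannot be told apart.

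miR-322-5p held most of the reads of the cluster and had the lowest ratios to day 0 among the 7 members. It had 40003, 38217 and 48666 reads in the day 0, day 1 and day 3 libraries. These are 4702 CPM [4656 to 4748], 5952 CPM [5893 to 6012] and 4968 CPM [4925 to 5013]. Day 1 was the highest of the 3 libraries, and days 0 and 3 were close. It ranked 27, 30 and 29 among all miRNAs. The log2 ratio to day 0 was 0.34 [0.32 to 0.36] on day 1 and 0.08 [0.06 to 0.10] on day 3, short of 2-fold on both days. Its direction depended on the scaling, with -0.60 and -0.85 by TMM factors. Among the miRNAs tested, 361 of 532 on day 1 and 430 of 569 on day 3 had a larger log2 ratio to day 0.

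The opposite arm of the same hairpin, miR-322-3p, was far less abundant, with 307, 475 and 557 reads on days 0, 1 and 3. Its levels of 36.1, 74.0 and 56.9 CPM were also highest on day 1. The log2 ratio to day 0 was 1.04 [0.83 to 1.25] on day 1, just past 2-fold with an interval on both sides of it, and 0.66 [0.45 to 0.86] on day 3. By TMM factors these were 0.09 and -0.27, and by DESeq2's median-of-ratios factors the day 1 ratio was -0.0059. Its direction thus depended on the scaling on both days.

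Among the members, miR-351-5p differed most between the libraries. Its reads numbered 124, 466 and 7070 on days 0, 1 and 3, or 14.6 CPM [12.2 to 17.4], 72.6 CPM [66.3 to 79.5] and 721.8 CPM [705.2 to 738.8]. The 3 intervals do not overlap, and each later library was higher than the one before. It ranked 219, 174 and 76 among all miRNAs. The level was 4.98 times that of day 0 on day 1 [4.08 to 6.12] and 49.5 times on day 3 [41.5 to 59.6]. On the log2 scale the day 3 ratio to day 0 was 5.63, and under the other scalings and deposited values it ran from 4.51 to 5.77. Of the 569 miRNAs tested on day 3, 10 had a larger ratio to day 0, each with at least 100 reads in the day 0 or day 3 library, and 2 of these 10 had 0 reads on day 0 and were set to 3 reads. Between days 1 and 3 the level differed 9.95-fold [9.05 to 10.9], and 25 of 583 miRNAs had a larger ratio.

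miR-503-5p, whose hairpin lies between those of miR-322 and miR-351, had 67, 178 and 550 reads on days 0, 1 and 3. Its levels were 7.88 CPM [6.20 to 10.0], 27.7 CPM [23.9 to 32.1] and 56.2 CPM [51.7 to 61.0]. The libraries do not overlap within counting error, with day 0 lowest and day 3 highest. The level was 3.52 times that of day 0 on day 1 [2.64 to 4.73] and 7.13 times on day 3 [5.53 to 9.33]. Between days 1 and 3 the ratio was 2.03 [1.71 to 2.41], so counting error alone spans the 2-fold threshold.

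miR-542-3p, which is known to target the mRNA of the apoptosis inhibitor survivin, was the least abundant member in every library, with 12, 29 and 109 reads. Its levels were 1.41 CPM [0.807 to 2.47], 4.52 CPM [3.14 to 6.49] and 11.1 CPM [9.23 to 13.4]. Day 3 was 7.89 times day 0 [4.34 to 15.7] and day 1 was 3.20 times day 0 [1.58 to 6.89]. The low count on day 0 makes these intervals wide.

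miR-450b-5p, from the last hairpin of the cluster, had 26, 44 and 228 reads, or 3.06 CPM [2.09 to 4.48], 6.85 CPM [5.10 to 9.20] and 23.3 CPM [20.4 to 26.5]. It was 2.24 times its day 0 level on day 1 [1.35 to 3.79] and 7.62 times on day 3 [5.07 to 11.9]. The step between days 1 and 3 was a ratio of 3.40 [2.45 to 4.80], whose interval overlaps that of the step from day 0 to day 1. miR-450a-5p had 286, 728 and 890 reads, or 33.6 CPM [29.9 to 37.7], 113.4 CPM [105.4 to 121.9] and 90.9 CPM [85.1 to 97.0]. Unlike miR-450b-5p, it was highest on day 1, at 3.37 times day 0 [2.94 to 3.88], and stood at 2.70 times on day 3 [2.36 to 3.10]. Its step from day 1 to day 3 was 0.801 [0.726 to 0.885], and the intervals of this step in miR-450a-5p and miR-450b-5p do not overlap.

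**Figure D1:**
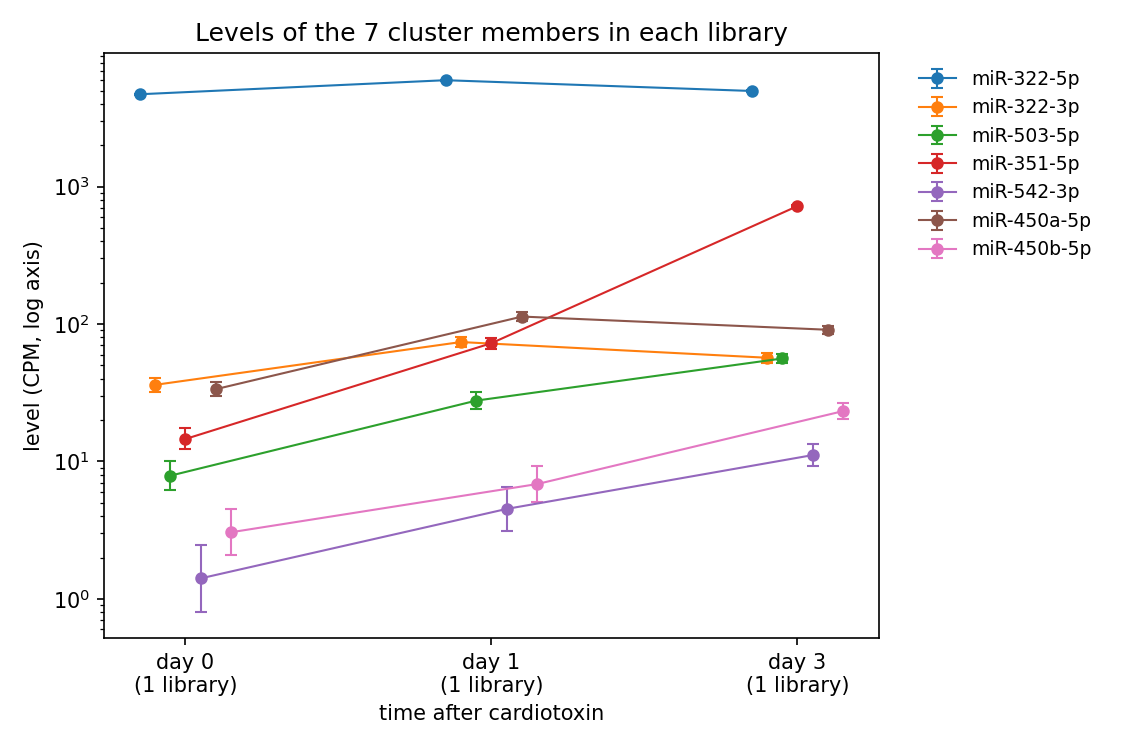
Levels of the 7 members in CPM on a log axis in the day 0, day 1 and day 3 libraries, 1 library each, with 95% Wilson intervals for counting error; points are shifted sideways for legibility and lines join the same miRNA. miR-322-5p stays between 4702 and 5952 CPM, while miR-351-5p goes from 14.6 to 721.8 CPM and passes every member but miR-322-5p by day 3.

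On day 1, 6 of the 7 members were called higher than on day 0 and 0 were called lower, where 55.3% of the 532 miRNAs tested were called higher and 12.0% lower. For 3 of the members (miR-351-5p, miR-503-5p and miR-450a-5p) the whole interval lay above 2-fold. The median log2 ratio of the members was 1.68, beside 1.28 over all miRNAs tested. The day 1 count rests on the scaling, since by TMM factors miR-351-5p alone passed 2-fold, with a log2 ratio of 1.37, and 35.2% of all miRNAs tested were then higher and 24.2% lower. On day 3, 5 of the 7 were called higher than on day 0 and 0 lower, where 58.5% of 569 miRNAs were higher and 10.0% lower. These were miR-351-5p, miR-542-3p, miR-450b-5p, miR-503-5p and miR-450a-5p, each with its interval above 2-fold, and the median over the members was 2.83 beside 1.47 over all. By TMM factors 4 of them were still past 2-fold, and miR-450a-5p, at 0.51, was not, with 39.4% of all miRNAs higher and 22.1% lower. Both comparisons share the day 0 library.

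Between days 1 and 3 the other scalings moved log2 ratios by -0.08 to 0.11. Here 4 of the 7 members were called higher on day 3 and 0 lower, where 25.0% of 583 miRNAs were higher and 17.7% lower. The 4 were miR-351-5p (log2 ratio 3.31), miR-450b-5p (1.76), miR-542-3p (1.30) and miR-503-5p (1.02, or 0.94 by median-of-ratios factors). For miR-351-5p and miR-450b-5p the whole interval lay above 2-fold. miR-322-5p (-0.26), miR-450a-5p (-0.32) and miR-322-3p (-0.38) were lower on day 3 than on day 1 by less than 2-fold, with intervals below a ratio of 1. Taken from the expression scores as deposited, without any scaling for depth, these 3 stood higher on day 3 (0.27, 0.28 and 0.24), and 37.6% of all miRNAs were higher and 9.95% lower. With the scores scaled to their total they stood at -0.020, -0.013 and -0.053, so the direction of these 3 depended on the values used. The median of the members was 1.02, beside 0.02 over all miRNAs tested.

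**Figure D2:**
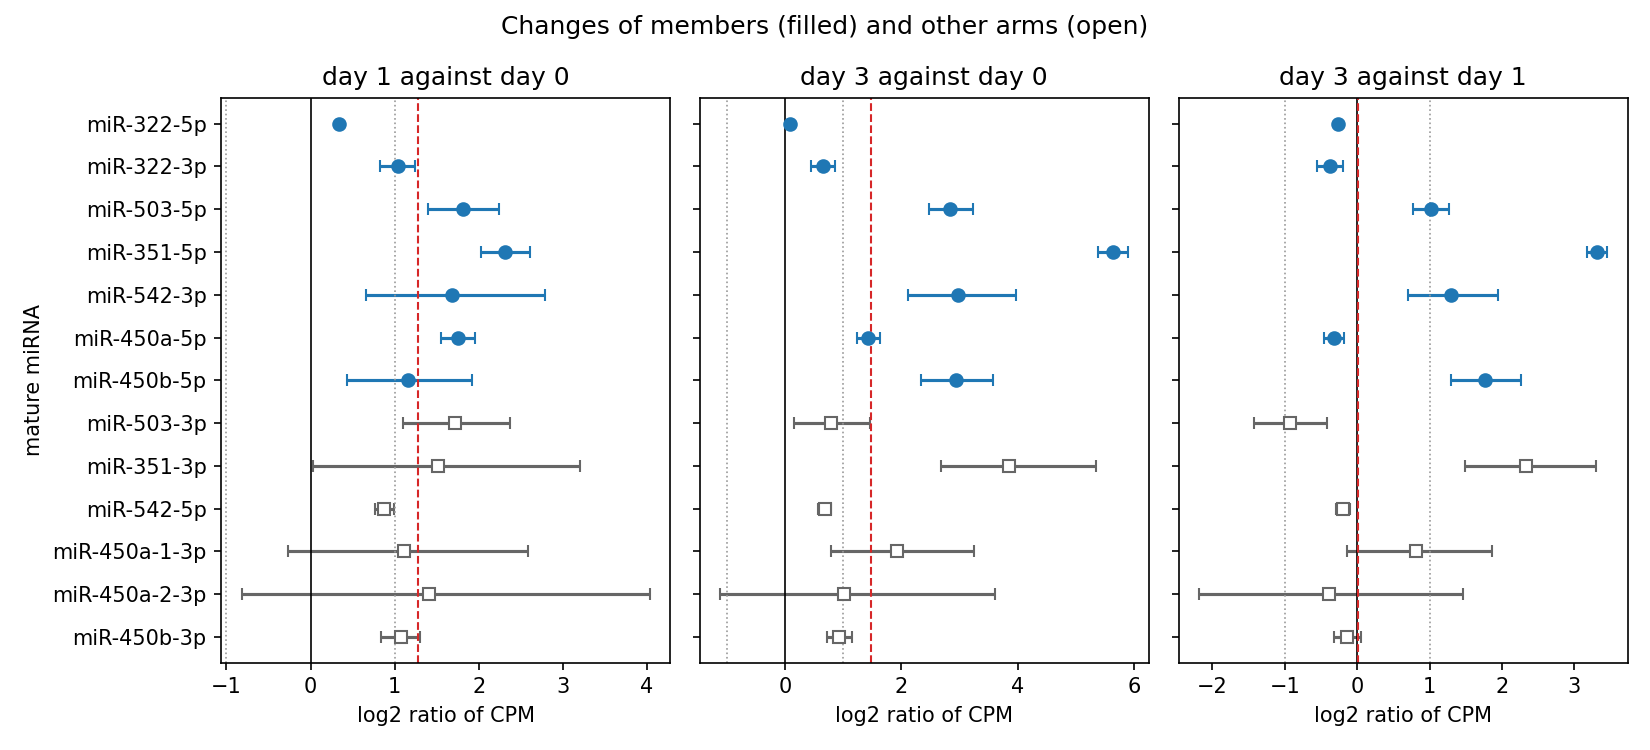
log2 ratios of CPM in the 3 comparisons for the 7 members (filled circles) and the 6 other arms of their hairpins (open squares), with exact 95% intervals for counting error. The dashed red line is the median of all miRNAs tested (1.28, 1.47 and 0.02), the dotted lines mark 2-fold, and miR-450a-2-3p, with 3 to 7 reads, was below the read minimum. miR-351-5p is the rightmost member in each panel, and miR-322-5p lies left of the median line in each.

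Levels of the members relative to each other do not depend on how libraries are scaled. For every 1000 reads of miR-322-5p the day 0 library held 3.10 reads of miR-351-5p [2.58 to 3.70], the day 1 library 12.2 [11.1 to 13.4] and the day 3 library 145.3 [141.7 to 148.9]. miR-503-5p stood at 1.68 [1.30 to 2.13], 4.66 [4.00 to 5.40] and 11.3 [10.4 to 12.3] per 1000. Both were higher at each later time, by more than counting error. miR-450b-5p (0.650, 1.15 and 4.69 per 1000) and miR-542-3p (0.300, 0.759 and 2.24) also ended highest on day 3. miR-450a-5p went from 7.15 [6.34 to 8.03] to 19.0 [17.7 to 20.5] and then held at 18.3 [17.1 to 19.5], with overlapping intervals on days 1 and 3. miR-322-3p had a similar course, from 7.67 [6.84 to 8.59] to 12.4 [11.3 to 13.6] and 11.4 [10.5 to 12.4].

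miR-322-5p made up 98.0% [97.8 to 98.1] of the reads of the 7 members at the start, 95.2% on day 1 and 83.8% [83.5 to 84.1] in the last library. The summed level of all 7 was therefore mainly that of miR-322-5p, at 4799, 6251 and 5928 CPM, or log2 ratios to day 0 of 0.38 [0.36 to 0.40] and 0.31 [0.29 to 0.32]. The direction of the sum depended on the scaling, with -0.56 and -0.62 by TMM factors. Without miR-322-5p the other 6 summed to 96.6, 299.0 and 960.1 CPM. Their log2 ratio to day 0 was 1.63 [1.51 to 1.75] on day 1 and 3.31 [3.21 to 3.42] on day 3.

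Below miR-322-5p, the order of the members changed from library to library. On day 0 miR-322-3p and miR-450a-5p came next, with a ratio of 1.07 [0.911 to 1.27] that counting error cannot separate, followed by miR-351-5p, miR-503-5p, miR-450b-5p and miR-542-3p, each separable from its neighbor. On day 1 miR-450a-5p stood second, miR-322-3p and miR-351-5p were not separable (1.02 [0.895 to 1.16]), and neither were miR-450b-5p and miR-542-3p (1.52 [0.928 to 2.51]). On day 3 miR-351-5p was second, at 7.94 times miR-450a-5p [7.41 to 8.53] and behind miR-322-5p by a ratio of 6.88 [6.71 to 7.06]. miR-322-3p and miR-503-5p were not separable on that day (1.01 [0.899 to 1.14]). Of the reads of the 6 less abundant members, miR-351-5p took 15.1% [12.8 to 17.7], 24.3% [22.4 to 26.2] and 75.2% [74.3 to 76.0] on days 0, 1 and 3.

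**Figure D3:**
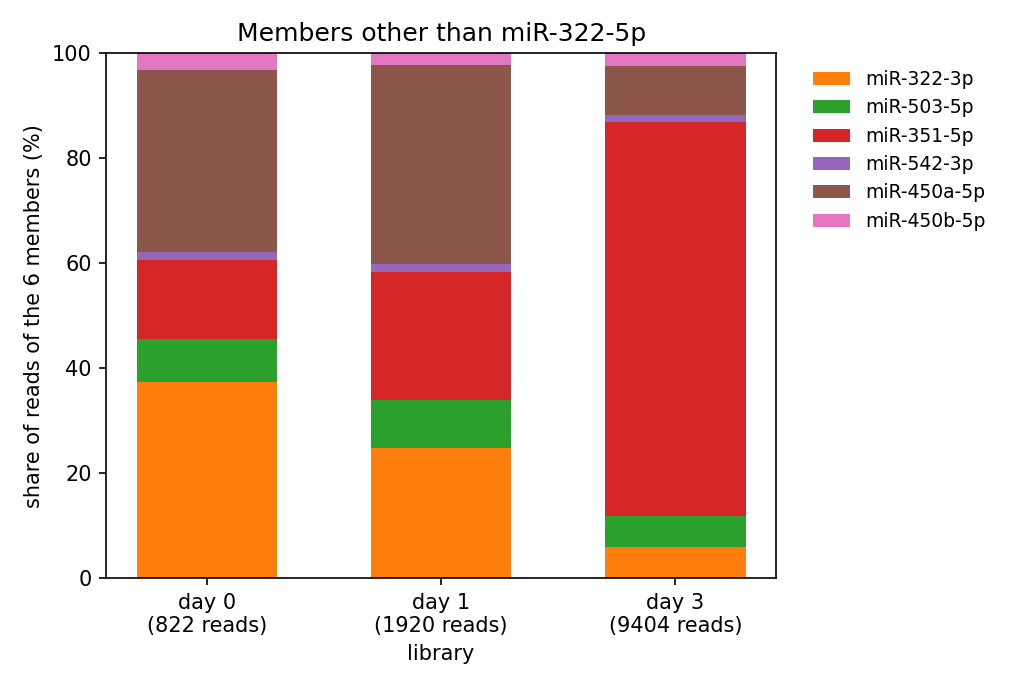
Shares of the 6 members other than miR-322-5p in their summed reads (822, 1920 and 9404 reads) in each library, in percent. miR-351-5p (red) widens from 15.1% to 75.2%, and miR-322-3p (orange) narrows from 37.3% to 5.92%.

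The other arms of the same hairpins showed whether a change was seen on both strands of a duplex. Of these 6 miRNAs, 5 passed the read minimum in each comparison, and miR-450a-2-3p, with 3, 6 and 7 reads, did not. On day 1, 4 of the 5 were called higher than on day 0, beside 55.3% of all miRNAs tested, with a median log2 ratio of 1.11 beside 1.28 over all miRNAs. Among them, miR-351-3p (6 reads on day 0 and 13 on day 1) and miR-450a-1-3p (8 and 13) passed the read minimum only through day 1. Their ratios to day 0 were 2.87 [1.02 to 9.21] and 2.15 [0.827 to 5.99], and the latter interval holds 1. By TMM factors 0 of the 5 were called higher, beside 35.2% of all. On day 3, 2 of the 5, miR-351-3p and miR-450a-1-3p, were called higher than on day 0, beside 58.5% of all. Both passed the read minimum only through day 3, with 100 and 35 reads. The median was 0.93 beside 1.47. By TMM factors miR-351-3p alone was called higher, 1 of 5 beside 39.4% of all. Between days 1 and 3 miR-351-3p alone was called higher on day 3, 1 of 5 beside 25.0% of all. None was called lower in any of the 3 comparisons at the scaling to library totals.

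miR-351-3p had 6, 13 and 100 reads, or 0.705, 2.02 and 10.2 CPM. Both arms of Mir351 were thus highest on day 3, the 3p arm at 14.5 times day 0 [6.42 to 40.4] against 49.5 times for the 5p arm. The 5p to 3p ratio of reads was 20.7 [9.23 to 57.4], 35.8 [20.8 to 67.8] and 70.7 [58.0 to 87.0] in the successive libraries. The intervals of days 0 and 3 do not overlap, although the day 0 value rests on 6 reads of the 3p arm.

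The hairpins of miR-503, miR-542 and miR-450b are shown because the balance between their arms differed between the libraries. The sequences are those of RefSeq on GRCm38.p6, minus strand, at the positions given above, and capitals mark the 2 mature arms, 5p first.

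Mir503: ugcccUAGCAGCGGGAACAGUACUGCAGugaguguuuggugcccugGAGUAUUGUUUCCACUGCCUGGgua

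Mir542: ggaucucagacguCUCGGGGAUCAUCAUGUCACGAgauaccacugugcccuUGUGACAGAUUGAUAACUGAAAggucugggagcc

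Mir450b: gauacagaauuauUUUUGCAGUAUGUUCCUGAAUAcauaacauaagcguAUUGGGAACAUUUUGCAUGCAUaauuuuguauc

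In Mir503 the 5p arm is the more abundant. miR-503-3p had 31, 77 and 62 reads, so that it was lower on day 3 (6.33 CPM) than on day 1 (12.0 CPM) while miR-503-5p was higher. The 5p to 3p ratio was 2.16 [1.39 to 3.42] on day 0 and 2.31 [1.76 to 3.06] on day 1, which overlap, and 8.87 [6.81 to 11.7] on day 3.

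In Mir542 the balance moved the other way. miR-542-5p was the main arm in each library, with 1104, 1532 and 2039 reads (129.8, 238.6 and 208.2 CPM), and outnumbered miR-542-3p by 92.0 [52.5 to 178.6], 52.8 [36.6 to 79.2] and 18.7 [15.4 to 22.9] reads to 1. The 3p arm went from 1.08% of the reads of the hairpin on day 0 [0.616 to 1.87] to 5.07% on day 3 [4.22 to 6.09]. The 5p arm changed by less than 2-fold in every comparison, with log2 ratios to day 0 of 0.88 and 0.68.

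In Mir450b the 3p arm was the main one. miR-450b-3p had 260, 412 and 571 reads and outnumbered miR-450b-5p 10.0 to 1 on day 0 [6.67 to 15.6] and 9.36 to 1 on day 1 [6.85 to 13.1], but 2.50 to 1 on day 3 [2.14 to 2.93]. Its log2 ratio to day 0 was 1.07 [0.84 to 1.30] on day 1 and 0.93 [0.72 to 1.15] on day 3. miR-450b-3p and miR-450a-1-3p share their first 18 bases and differ by an edit distance of 2, so reads trimmed at the 3′ end could have been counted for either. How reads with more than 1 match were assigned is not given in the sources used here. miR-450a-1-3p had 8, 13 and 35 reads.

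In Mir322 the minor arm gained. miR-322-5p outnumbered miR-322-3p by 130.3 [116.5 to 146.3], 80.5 [73.5 to 88.3] and 87.4 [80.4 to 95.2] reads to 1 on days 0, 1 and 3. Both injured libraries lay below day 0, and they overlapped each other. Of these 5 hairpins, the arm whose share was larger on day 3 than on day 0 was the 5p arm in Mir503, Mir351 and Mir450b and the 3p arm in Mir542 and Mir322.

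**Figure D4:**
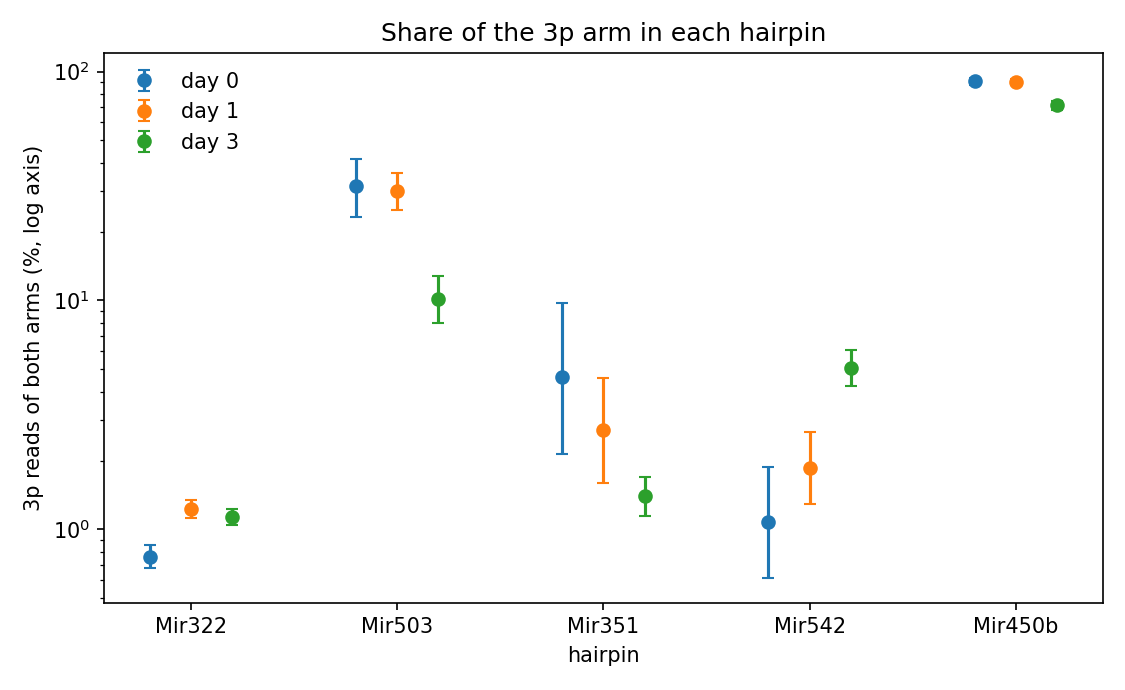
Share of the 3p arm in the reads of both arms of each hairpin, in percent on a log axis, with 95% Wilson intervals for counting error; colors are the 3 libraries. By day 3 the share is lower for Mir503 (10.1%), Mir351 (1.39%) and Mir450b (71.5%) and higher for Mir542 (5.07%) and Mir322 (1.13%) than on day 0.

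Seeds link the members to abundant miRNAs from other loci. Bases 2 to 8 of miR-322-5p are those of the miR-15 and miR-16 family, known for holding back the cell cycle, of which miR-15a-5p, miR-15b-5p, miR-16-5p, miR-195a-5p and miR-497a-5p were listed. With miR-503-5p, which shares bases 2 to 7, these 7 miRNAs summed to 17973, 51631 and 32862 CPM on days 0, 1 and 3. miR-322-5p held 26.2%, 11.5% and 15.1% of that sum, and miR-503-5p held at most 0.171%. miR-16-5p was the most abundant, with 59.0%, 73.5% and 68.2%. The other listed relatives did not move as 1 group. miR-15b-5p had log2 ratios to day 0 of 3.34 and 3.07 on days 1 and 3, miR-497a-5p had 0.43 and 0.58, and miR-195a-5p had 1.94 and -0.70.

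miR-351-5p shares bases 2 to 8 with the miR-125 family, which is unrelated to the seed of miR-322-5p and known from the control of differentiation in blood and muscle. The listed relatives are shown with their seeds in capitals, to be read beside miR-351-5p above.

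mmu-miR-125b-5p: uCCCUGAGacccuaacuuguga

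mmu-miR-125a-5p: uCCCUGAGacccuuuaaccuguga

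Past the seed, miR-351-5p differs from miR-125a-5p by an edit distance of 7 over the whole sequence, its nearest mature miRNA in the table. The 3 summed to 984.4, 2120 and 2521 CPM. miR-351-5p held 1.48%, 3.42% and 28.6% of that sum, whereas the share of miR-125b-5p went from 81.6% to 76.8% and 47.9%. miR-125a-5p held 16.9%, 19.8% and 23.4%. On day 3 miR-351-5p, at 721.8 CPM, was above miR-125a-5p (590.9 CPM) and below miR-125b-5p (1208 CPM).

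**Figure D5:**
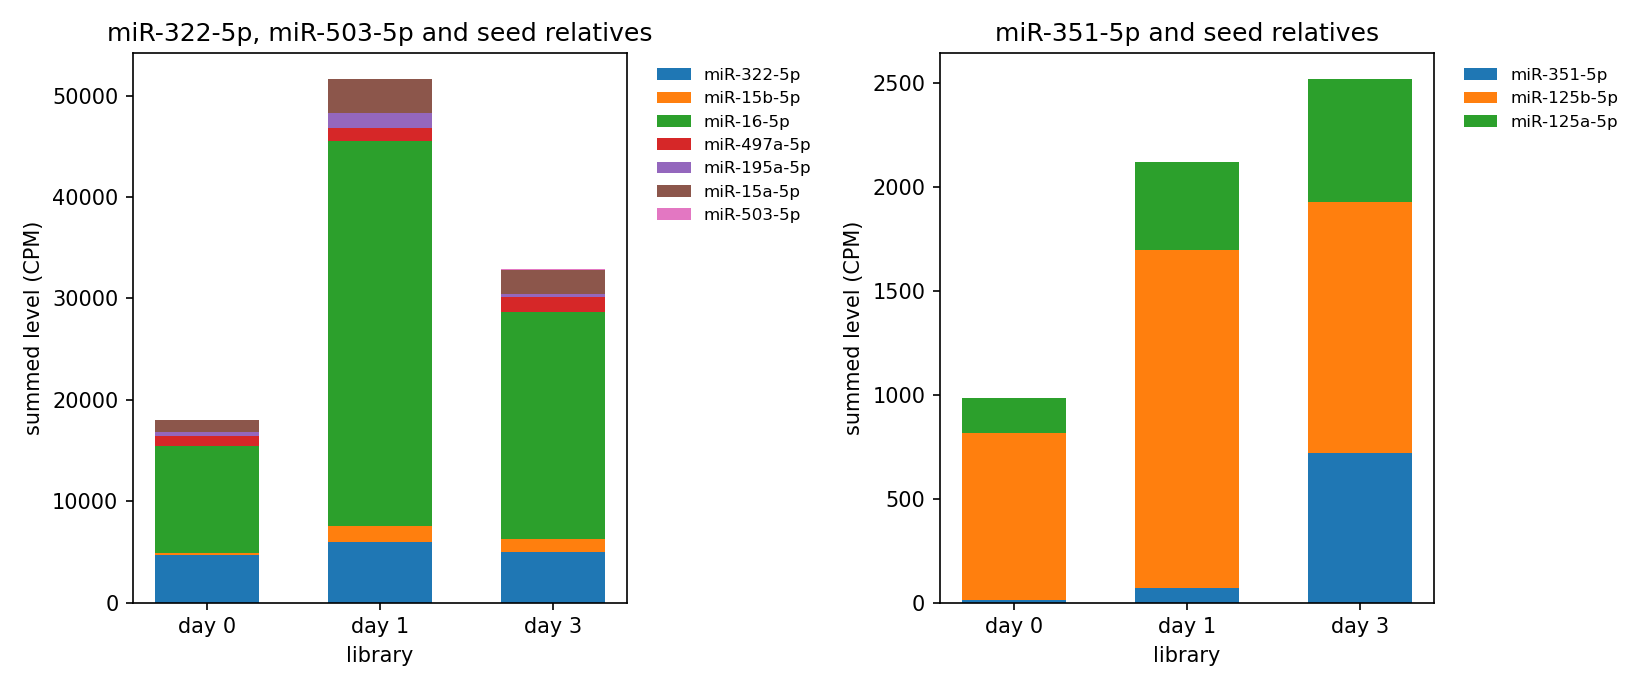
Summed levels in CPM of the listed miRNAs that share bases 2 to 7 with miR-322-5p (left) and bases 2 to 8 with miR-351-5p (right), 1 bar per library, split by miRNA. miR-322-5p (blue, left) keeps nearly the same height while miR-16-5p (green) sets the height of the bar, and miR-351-5p (blue, right) reaches 28.6% of its family on day 3.

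Outside the cluster, the miRNAs whose pattern lay nearest to that of miR-322-5p were miR-574-3p, miR-1839-5p, miR-365-3p, miR-196b-5p and miR-676-3p. Nearness was the distance between the pairs of log2 ratios of days 1 and 3 to day 0, over 3 libraries and 210 miRNAs with at least 100 reads in each. The distances ran from 0.10 to 0.24 on the log2 scale. The ratios of miR-574-3p were 0.25 and 0.11.

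Marker miRNAs of the cell types in muscle moved between the same libraries. The 6 myofiber miRNAs, among them miR-1a-3p and miR-133a-3p, summed to 260790, 86671 and 95888 CPM, and 4 of the 6 were called lower on each day than on day 0, beside 12.0% of all miRNAs tested on day 1 and 10.0% on day 3. They were not the same 4, since mmu-miR-133a-5p (20, 7 and 14 reads) was called lower on day 1 only and mmu-miR-499-5p on day 3 only. mmu-miR-208b-3p was called higher on day 3 than on day 0 (58.5% of all) or day 1 (25.0% of all). It had 4, 1 and 10 reads, so it reached the read minimum through day 3 alone and was not tested between days 0 and 1. mmu-miR-499-5p, at 183.6 CPM on day 1 and 80.2 CPM on day 3, was called lower on day 3 than on day 1 (17.7% of all). The 3 miRNAs of regenerating muscle, led by miR-206-3p, summed to 13624, 5028 and 181660 CPM, with 1 of them at 0 reads on day 0. Of these 3, 2 were called lower on day 1 than on day 0 (12.0% of all miRNAs), 2 higher on day 3 than on day 0 (58.5% of all) and 3 higher on day 3 than on day 1 (25.0% of all). Both counts of higher calls include mmu-miR-206-5p, with 0, 2 and 148 reads. It reached the read minimum through day 3 alone, and its day 0 count was set to 3 reads. The summed list of regenerating muscle and miR-351-5p were both highest on day 3. On day 1, however, the list stood below day 0 and miR-351-5p above it. The 6 leukocyte miRNAs, among them miR-223-3p, summed to 5010, 19029 and 6745 CPM, highest on day 1. Most of the day 0 sum was mmu-miR-150-5p, at 4733, 8307 and 3197 CPM, whereas mmu-miR-223-3p stood at 97.8, 7815 and 1896 CPM. Of the 6, 4 were called higher than on day 0 on day 1 and also 4 on day 3, beside 55.3% and 58.5% of all miRNAs, and 3 were called lower on day 3 than on day 1, beside 17.7% of all. The 4 stromal miRNAs, miR-199a and miR-214 in both arms, summed to 2048, 3744 and 6366 CPM, higher at each later time, as was miR-351-5p. All 4 were called higher on day 3 than on day 0, beside 58.5% of all. The counts of miR-199a-3p equal those of miR-199b-3p in every library, so these names cannot be told apart. Endothelial miR-126a (59427, 132923 and 58732 CPM for 2 arms) and 3 erythroid miRNAs (7145, 25335 and 12564 CPM) were highest on day 1. The 6 epithelial miRNAs summed to 9.99, 219.9 and 121.0 CPM, also highest on day 1. In CPM, miR-322-5p, miR-322-3p and miR-450a-5p were highest on day 1 too. By TMM factors, however, miR-322-5p was lower on day 1 than on day 0 (log2 ratio -0.60). With the expression scores as deposited, all 3 were higher on day 3 than on day 1. The part of these cell types in the changes of the cluster was not tested.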

How the data were processed

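The authors pooled 4 samples into 1 library at each time point, sequenced small RNAs of 18 to 30 nucleotides on the BGISEQ platform and aligned the reads to GRCm38.p6. The submitters' processing notes name HISAT and Bowtie2, and how reads were assigned to miRNAs is not given in the sources used here. The authors deposited for each mature miRNA a read count, without normalization. They also deposited an expression score of whole numbers that never exceed the count, and how it was made is not stated.

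Counts were divided by library totals. With 1 library per time point no replicate model was fitted and no p-value is reported. CPM and shares have Wilson intervals, and ratios have exact binomial intervals, all at 95% and for counting error only. For the median and the calls over all miRNAs, a count of 0 was set to 3 reads, the floor of detection (0.353, 0.467 and 0.306 CPM on days 0, 1 and 3). Calls needed a fold of 2 and at least 10 reads in either library. The calling was tested on simulated data. There the shift of the library totals was known and taken out, so the scaling itself was not tested. The alternatives were TMM and median-of-ratios factors, totals without the 10 most read miRNAs, the deposited scores, a pseudocount of 1 CPM, read minimums of 1 and 100, a fold of 4, and Fisher's exact test on the reads with Benjamini-Hochberg adjustment at 0.001, which compares libraries and not conditions. The scores scaled to their total were added after the data were seen.

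The miRNAs named are the 7 members, the 6 other arms of their hairpins, miRNAs sharing bases 2 to 7 with a member and at least 100 reads in a library, the 5 with the pattern nearest to the member with the most reads, and marker lists. The members and lists were chosen with earlier results of these data known. Sequences are from RefSeq and annotation from GENCODE M21. TMM factors came from edgeR 4.0.16 and median-of-ratios factors from DESeq2 1.42.0 under R 4.3.3. Intervals were computed with scipy 1.17.1 in Python 3.11.15, tables with pandas 2.3.3 and numpy 2.4.6, and plots with matplotlib 3.10.9.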

Additional observations from a re-analysis of the deposited data

How the results depend on the processing

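With 1 library per time point no replicate could be left out, and the intervals cover counting error only. miRNAs near 10 reads on day 0, such as miR-542-3p with 12, have folds known only within wide bounds. Of 126 log2 ratios of single members under an alternative, 60 stayed within the counting interval, 65 moved outside it and 1 changed sign after a call of 2-fold (miR-322-3p on day 1, -0.0059 by median-of-ratios factors). Ratios short of 2-fold that changed sign are counted among the 65, such as those of miR-322-5p to day 0 by TMM factors. miR-351-5p was at least 2-fold higher at the later time in the 3 comparisons under each of the scalings, the pseudocount and the expression values.

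Of 7 members, 6 were past 2-fold on day 1 against day 0. The count was 1 under a fold of 4 and also 1 by median-of-ratios or TMM scaling, beside 33.8%, 33.1% and 35.2% of all miRNAs called higher. It was 4 with Fisher's test (25.1% of all), without the 10 most read (42.7%), with the expression values (46.1%, or 41.2% scaled) and, of 5 tested, at 100 reads (51.4%), 5 with the pseudocount (51.1%) and 6 at 1 read (42.9%). Between days 1 and 3 it was 4 (25.0% of all), 3 by median-of-ratios scaling (24.2%) or a pseudocount of 1 CPM (20.6%), and 1 with a fold of 4 (12.3%). On day 3 against day 0 it was 4 or 5, while the share of all miRNAs called higher ran from 26.1% with Fisher's test to 62.2% with the expression values, and by median-of-ratios factors 1 of the 5 was miR-322-5p, lower by a log2 ratio of -1.04. The log2 ratio of the summed members on day 1 was -0.56 by TMM scaling, -0.66 by median-of-ratios scaling, -0.23 without the 10 most read miRNAs, 0.017 with the deposited expression values and -0.21 with these scaled to their total. On day 3 these were -0.62, -0.81, -0.20, 0.51 and -0.0022, and between days 1 and 3 they were -0.15 with median-of-ratios factors, 0.032 without the 10 most read, 0.49 with the expression values and 0.20 scaled. The direction of the sum therefore depends on the scaling. With the expression values, miR-322-5p took 97.5%, 94.3% and 80.7% of the members' total on days 0, 1 and 3, and its ratio to miR-322-3p was 105.2, 66.4 and 68.0.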
